A study of Mus musculus with 24 samples.

Results

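KO-labelled cells were compared with wild type (WT) cells of the MPP2-labelled progenitor population of mouse bone marrow, across all genes. The comparison rests on the 6 libraries whose titles carry the label MPP2, 3 labelled KO (knockout) and 3 labelled WT, out of 24 libraries in the series. The series sequenced total RNA of haematopoietic stem cells (HSC) and multipotent progenitors (MPP) in 8 groups of 3 libraries, formed by genotype (KO or WT) and population (HSC, MPP1, MPP2 or MPP4). Tamoxifen, a drug often used to switch on an inducible Cre recombinase, had been given in every group, WT included. The cells were sorted from bone marrow according to the growth protocol, whereas the tissue field says blood. The gene that was removed, a Cre driver, the strain, the age of the mice and the number of mice per library are not given in the sources used here. Whether the 3 libraries of a group are separate mice is not stated, so the p-values reflect variation among libraries that may be technical only.

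Multipotent progenitors stand between stem cells and the committed blood lineages. By the usual surface scheme, MPP2 cells lack the cytokine receptor Flt3, carry the stem cell receptor encoded by Slamf1 and lean toward megakaryocytes and red cells, whereas MPP4 cells carry Flt3 and lean toward lymphocytes. P-bodies, named in the title of the series, are cytoplasmic granules in which untranslated RNA is held with proteins that repress translation and remove caps. Immediate early genes, which form a large part of what follows, are transcribed within minutes of a stimulus and give short-lived RNA that decay factors clear.

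Total counts were 2894916 to 3523747 in the KO-labelled and 3442027 to 3807003 in the WT libraries of MPP2. Of 56748 genes in the table, 22696 to 23529 had a count in a KO-labelled library and 26856 to 27178 in a WT library. Olfactory and vomeronasal receptor genes, which blood cells do not use, were nonetheless counted in each library. Taking their counts per kb of gene as a background density, the share of counts expected from background was 9.33 ± 0.625% in KO-labelled and 11.4 ± 0.142% in WT libraries (SD, n = 3 each). Replicates differed by more than counting error, with a chi-square per gene between pairs of 7.51 to 9.08 among KO-labelled and 4.32 to 4.92 among WT libraries. Some genes that blood cells use, such as B2m, Igkc, Itgam, Ms4a1, Rag1 and Rag2, are listed at 0 in all 24 libraries and could not be compared. Levels below are counts per 1000000 (CPM) on scaled library totals, always given for replicates 1, 2 and 3. Fold changes are log2 values of KO-labelled over WT libraries with their standard error (SE, n = 3 each). Adjusted p-values are from edgeR (quasi-likelihood test, Benjamini-Hochberg adjustment over 21964 tested genes), and a gene is said to have risen or fallen where that value was below 0.05.

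The MPP2 label was checked first, and the RNA went against it. Flt3, the receptor that marks MPP4 cells, stood at 620.5, 522 and 478 CPM in KO-labelled and 1175, 1144 and 1075 CPM in WT MPP2-labelled libraries. In MPP4-labelled libraries it was 75.3, 85.5 and 91.3 CPM in KO-labelled and 80.5, 54.1 and 58.8 CPM in WT libraries. All MPP2-labelled libraries thus lay above all MPP4-labelled ones, by 2.68 ± 0.12 (log2) within KO-labelled libraries (adjusted p = 3.1e-21) and by 4.13 ± 0.13 within WT libraries (adjusted p = 4.12e-27, both by edgeR). Of all tested genes, 8.33% were higher and 7.20% lower in MPP2-labelled than in MPP4-labelled libraries within KO-labelled cells, and 16.6% and 10.7% within WT cells.

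Dntt, which encodes the template-free DNA polymerase of early lymphoid cells, gave the same picture, with 422, 416 and 405 CPM in KO-labelled and 583, 559.9 and 553 CPM in WT MPP2-labelled libraries. Its levels in MPP4-labelled libraries were 39.3, 39.6 and 52.6 CPM in KO-labelled and 13.4, 16.3 and 24.1 CPM in WT libraries. The stem cell receptor gene Slamf1 and the megakaryocyte integrin gene Itga2b ran the other way. Slamf1 had 10.8, 1.60 and 1.86 CPM in KO-labelled and 9.31, 7.16 and 6.98 CPM in WT MPP2-labelled libraries, against 109, 69.4 and 82.1 CPM and 35.4, 34.5 and 52.6 CPM in the corresponding MPP4-labelled libraries. Itga2b had 5.01, 28.5 and 3.35 CPM in KO-labelled and 7.45, 10.9 and 14.6 CPM in WT MPP2-labelled libraries, against 73.7, 67.6 and 29.2 CPM and 67.7, 74.8 and 73.03 CPM in MPP4-labelled ones. One KO-labelled library stood apart for each of these low genes, replicate 1 for Slamf1 and replicate 2 for Itga2b. The differences from MPP4-labelled libraries were -4.23 ± 0.43 and -2.17 ± 0.43 within KO-labelled cells (adjusted p = 3.03e-10 and 0.000246) and -2.38 ± 0.39 and -2.71 ± 0.43 within WT cells (adjusted p = 5.68e-06 and 3.41e-06, edgeR). The cells are therefore called MPP2-labelled throughout, with no other cell type name, and by these genes they were Flt3-high, Dntt-high and Slamf1-low relative to MPP4-labelled libraries. The myeloid granule genes Mpo and Elane were higher as well, by 3.89 and 4.41 (log2) within WT and by 2.46 and 2.75 within KO-labelled cells. The profile was thus not lymphoid alone. MPP1 libraries also had Flt3 above and Slamf1 below MPP4-labelled ones. In MPP1 libraries Flt3 averaged 574 ± 27.7 CPM in KO-labelled and 422 ± 19.95 CPM in WT libraries, against 540.2 ± 73.1 CPM in KO-labelled and 1131 ± 51.5 CPM in WT MPP2-labelled libraries (SD, n = 3 each). Slamf1 averaged 4.66 CPM in KO-labelled and 9.65 CPM in WT MPP1 libraries, against 4.75 CPM and 7.81 CPM in the corresponding MPP2-labelled libraries. Dntt averaged 122 CPM in KO-labelled and 25.3 CPM in WT MPP1 libraries.

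**Figure D1:**
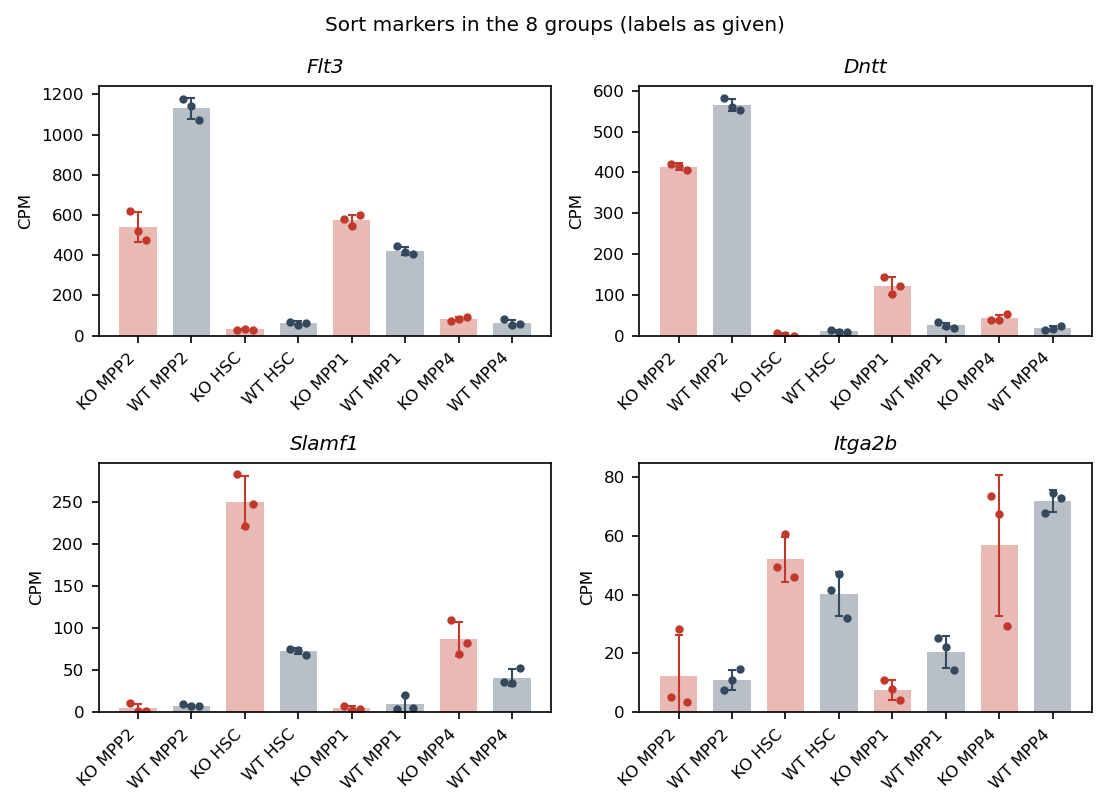
Levels of Flt3, Dntt, Slamf1 and Itga2b (CPM, axes from 0) in the 8 groups named as in the labels. Points are libraries, bars are means and error bars are SD of 3 libraries (KO-labelled red, WT grey). Flt3 and Dntt are high and Slamf1 and Itga2b low in both MPP2-labelled groups, with the reverse in both MPP4-labelled groups, and MPP1 groups lie close to MPP2-labelled ones for Slamf1.

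Ddx6, an RNA helicase needed to assemble P-bodies, was taken as the likely target from general knowledge of the study, since the labels do not name the gene. Its level was 100.2, 94.1 and 95.4 CPM in KO-labelled and 88.7, 78.7 and 101.2 CPM in WT libraries. The groups overlapped, with a fold change of 0.11 ± 0.18 on the log2 scale (adjusted p = 0.796, edgeR), so the RNA count did not show a loss. A count over the whole gene does not show whether a part of it was deleted, and every direction below rests on the genotype label.

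Across all genes, 820 rose (3.73% of those tested) and 917 fell (4.18%) in KO-labelled MPP2-labelled cells. In 11.4% of tested genes all KO-labelled libraries lay above all WT libraries, and in 13.9% all lay below. The balance depended on the level of the gene. Among 4017 genes of at least 64 CPM, 13.8% rose and 9.41% fell, with a median log2 fold change of 0.10. Among 10221 genes below 8 CPM, 0.313% rose and 1.99% fell, with a median of -0.48, or -0.20 with groups at or below 3 counts in every library set to 3 counts. Over all genes the median was -0.07, or 0 with that floor. Counts of called genes in the lists below are to be read beside the shares over all tested genes and at their level. A count near those shares is no result about its list. With the background subtracted, 306 genes rose and 570 fell of 19003 tested, among them 303 of the 820 rises and 497 of the 917 falls, and none was called in the opposite direction. Without WT replicate 1, 2 or 3 the rises numbered 520, 510 and 486, and without WT replicate 3 the falls numbered 604.

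**Figure D2:**
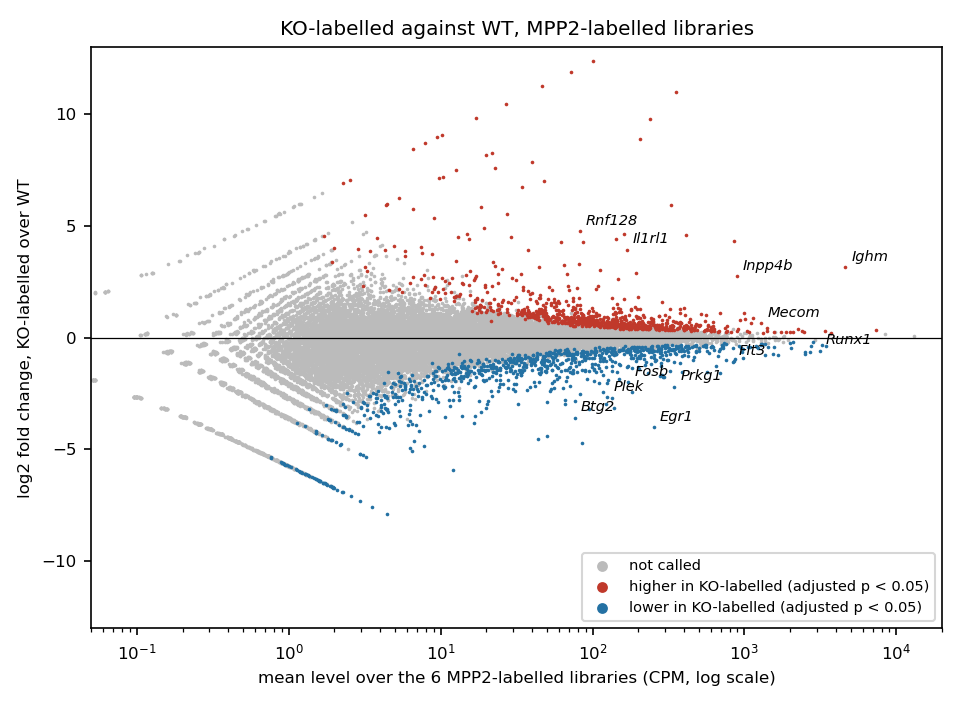
Log2 fold change of KO-labelled over WT for each tested gene against its mean level over the 6 MPP2-labelled libraries (CPM, log scale). Red points rose and blue points fell at an adjusted p below 0.05 (edgeR), grey points were not called, and slanting rows at the left are genes with few or no counts in a group, whose fitted fold depends on the prior count. Ighm, Il1rl1 and Inpp4b lie far above 0 and Egr1, Btg2, Plek and Prkg1 far below it.

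Many immediate early genes fell. Of 22 tested immediate early transcription factors (27 listed), 12 fell, 2 rose and 8 were not called. Beside them, 4.18% of all tested genes fell and 3.73% rose. The median log2 fold change was -1.75 (-1.62 with the 3-count floor) against -0.07 over all genes. After background subtraction 8 of them fell and 1 rose. Egr1 (ENSMUSG00000038418.8), a zinc finger factor induced by growth factor signalling, had 31.99, 18.6 and 39.5 CPM in KO-labelled libraries, against 479.9, 475 and 474 CPM in WT libraries. All KO-labelled libraries lay far below the WT libraries, and the log2 fold change was -4.00 ± 0.20 (adjusted p = 8.65e-20, edgeR). It was 15.98-fold lower, the strongest fall by p-value among immediate early genes.

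The AP-1 subunits followed. Fosb had 76.3, 73.6 and 58.1 CPM in KO-labelled and 275, 281 and 267 CPM in WT libraries (-1.98 ± 0.14, adjusted p = 7.49e-15, edgeR). Fos had 16.6, 12.8 and 27.9 CPM against 128, 142 and 134 CPM (-2.82 ± 0.30, adjusted p = 2.27e-09). Their partner Jun had 12.3, 26.6 and 11.2 CPM in KO-labelled and 133, 97.6 and 115 CPM in WT libraries (-2.77 ± 0.28, adjusted p = 7.18e-10). No KO-labelled library reached the lowest WT library for any of these. Junb fell by 1.85 ± 0.28 on the log2 scale. The orphan nuclear receptor gene Nr4a1, a sensor of receptor signalling in lymphocytes, had 16.96, 10.2 and 17.5 CPM in KO-labelled and 98.95, 125 and 125 CPM in WT libraries (-2.97 ± 0.31, adjusted p = 9.37e-10).

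Some genes that end the immediate early response fell beside those that start it. Of 27 tested feedback and effector genes (34 listed), 7 fell, 2 rose and 18 were not called, with a median of -0.79. Over all tested genes 4.18% fell and 3.73% rose. Other immediate early members with a feedback role, such as Dusp6, Dusp10, Spry1, Spry2 and Tnfaip3, did not fall. Btg2 (ENSMUSG00000020423.7), an antiproliferative protein that recruits the deadenylase to RNA, had 10.8, 16.97 and 7.45 CPM in KO-labelled and 139, 147 and 137 CPM in WT libraries and was 11.9-fold lower (-3.57 ± 0.32, adjusted p = 1.57e-11, edgeR). Zfp36, which binds AU-rich elements of short-lived RNA and brings about their decay, had 21.2, 19.9 and 31.3 CPM in KO-labelled and 150.1, 135 and 135 CPM in WT libraries (-2.54 ± 0.30, adjusted p = 3.02e-08). Both stood in KO-labelled cells at a small part of their WT level, without overlap. Among the phosphatases that switch off MAP kinases, Dusp1 had 14.6, 15.05 and 24.2 CPM in KO-labelled and 84.99, 95.3 and 84.1 CPM in WT libraries (-2.29 ± 0.23), and Dusp2 and Dusp5 fell by 2.38 ± 0.53 and 0.74 ± 0.18 on the log2 scale.

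Not all genes of this class fell. Myc, the growth regulator, had 457, 423 and 376 CPM in KO-labelled and 238, 209.5 and 220.1 CPM in WT libraries and rose by 0.91 ± 0.12 (adjusted p = 2.8e-07, edgeR). The kinase gene Pim1 had 132, 114 and 136 CPM against 74.1, 56.7 and 69.5 CPM (0.93 ± 0.19), and Zfp36l1, a relative of Zfp36, had 103, 81.3 and 83.5 CPM against 40.9, 41.5 and 32.7 CPM (1.22 ± 0.24). All KO-labelled libraries were above all WT libraries for these genes. Bhlhe40 was called higher at a low level, 10.4, 9.28 and 18.6 CPM in KO-labelled and 1.86, 2.00 and 2.22 CPM in WT libraries, and the call was lost without KO-labelled replicate 3 or any WT replicate and after background subtraction.

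**Figure D3:**
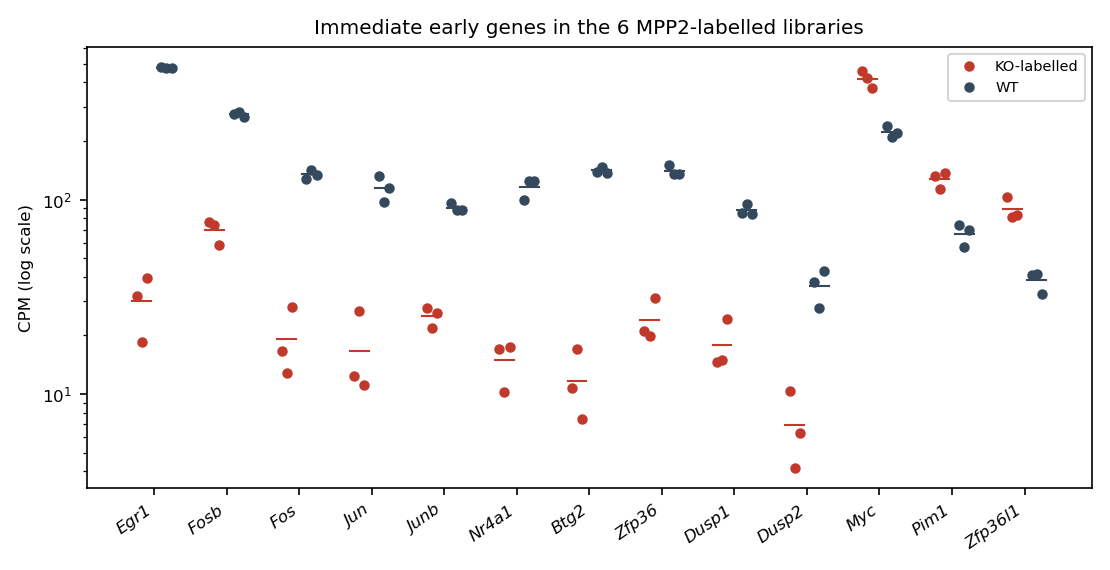
Levels of 13 immediate early genes in each of the 6 MPP2-labelled libraries (CPM, log scale), KO-labelled in red and WT in grey, with a line at each mean. From Egr1 to Dusp2 all KO-labelled points lie below all WT points, and for Myc, Pim1 and Zfp36l1 all lie above them.

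Because these genes moved together, the stretch around their start sites was searched for the elements that are known to drive them. Promoters of 300 bases (250 before and 50 after the start) came from RefSeq on GRCm38.p6. They were found for 16 of the 19 immediate early members that fell and 23 of the 30 tested members that did not. Egr1 is among those without a promoter here, and elements farther than 250 bases before a start were not searched. The cyclic AMP response element (CRE) TGACGTCA, read on both strands, was found in 3 of 16 promoters of members that fell (18.8%), 1 of 23 of those that did not (4.35%) and 1.79% of all 32851 promoters. The core TGACG, which overlaps the full element, was in 12 of 16 (75.0%), 9 of 23 (39.1%) and 20.8% of all promoters. The EGR box GCGNGGGCG, the sequence bound by Egr1, was in 8 of 16 (50%), 2 of 23 (8.70%) and 5.55% of all promoters. The CArG box, bound by serum response factor, was in 2 of 16 (12.5%), 0 of 23 and 1.63% of all promoters. These matches describe letters in the windows and were not tested for binding or effect.

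The promoters of Btg2, Dusp1, Nr4a1 and Zfp36 are shown because all 4 genes fell and together they hold every element searched. Capitals mark matches to the CRE, its core TGACG, the EGR box or the CArG box on either strand, and each sequence runs 5′ to 3′ on the strand of its gene (minus for Btg2, Dusp1 and Zfp36, plus for Nr4a1). They lie at chr1:134079106-134079405, chr17:26508423-26508722, chr15:101266596-101266895 and chr7:28379179-28379478 of GRCm38.p6, in the same order.
Btg2: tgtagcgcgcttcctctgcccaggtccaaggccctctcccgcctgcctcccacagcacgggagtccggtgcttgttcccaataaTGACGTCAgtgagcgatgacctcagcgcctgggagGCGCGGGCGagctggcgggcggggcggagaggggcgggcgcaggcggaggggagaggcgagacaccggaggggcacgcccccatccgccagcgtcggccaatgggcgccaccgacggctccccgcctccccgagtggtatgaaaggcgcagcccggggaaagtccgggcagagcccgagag
Dusp1: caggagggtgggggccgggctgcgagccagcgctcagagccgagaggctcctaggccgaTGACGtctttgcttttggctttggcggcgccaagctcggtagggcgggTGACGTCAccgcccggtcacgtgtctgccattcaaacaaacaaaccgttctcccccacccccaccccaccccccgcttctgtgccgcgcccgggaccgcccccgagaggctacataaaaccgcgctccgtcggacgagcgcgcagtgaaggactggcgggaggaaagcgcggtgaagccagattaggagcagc
Nr4a1: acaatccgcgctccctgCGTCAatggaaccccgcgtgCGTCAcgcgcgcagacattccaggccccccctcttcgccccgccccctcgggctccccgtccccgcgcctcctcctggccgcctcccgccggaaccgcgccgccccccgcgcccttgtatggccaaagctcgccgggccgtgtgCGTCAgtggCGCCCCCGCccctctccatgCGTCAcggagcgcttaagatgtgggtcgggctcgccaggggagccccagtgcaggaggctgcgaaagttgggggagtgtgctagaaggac
Zfp36: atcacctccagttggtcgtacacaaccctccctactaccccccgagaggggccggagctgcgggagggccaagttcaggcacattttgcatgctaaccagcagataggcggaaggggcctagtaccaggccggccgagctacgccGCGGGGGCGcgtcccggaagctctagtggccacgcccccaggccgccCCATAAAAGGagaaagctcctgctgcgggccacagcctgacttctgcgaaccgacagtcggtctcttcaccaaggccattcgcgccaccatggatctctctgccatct
The CRE begins 166 bases before the start of Btg2 and 143 before that of Dusp1. The EGR box begins 131 bases before the start in Btg2, 60 in Nr4a1 and 105 in Zfp36, and the CArG box of Zfp36 begins 58 bases before it. Nr4a1 holds 4 cores and no full CRE in this window.

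Il1rl1, the receptor subunit for the alarm cytokine IL-33 (also called ST2), rose steeply. It had 285, 330.4 and 329 CPM in KO-labelled libraries, against 25.1, 16.9 and 19.3 CPM in WT libraries, and was 15.4-fold higher (3.94 ± 0.23, adjusted p = 3.44e-17, edgeR). The rest of its pathway did not follow: of 12 tested genes of IL-33 signalling, Il1rl1 was the only one called, and the median was 0.11. The co-receptor gene Il1rap had 53.96, 45.5 and 30.6 CPM in KO-labelled and 69.2, 51.5 and 47.3 CPM in WT libraries, with overlap, and it was not called (-0.37 ± 0.24, adjusted p = 0.407).

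Genes of the type 2 immune programme rose with it. Of 8 tested members, 4 rose (against 3.73% over all tested genes), none fell (against 4.18%) and 4 were not called, with a median of 2.22. Gata3, the transcription factor of type 2 and early T cells, had 111, 141 and 89.8 CPM in KO-labelled and 18.3, 25.2 and 25.4 CPM in WT libraries (2.31 ± 0.27, adjusted p = 2.39e-08, edgeR). Il2ra, the high affinity chain of the interleukin 2 receptor, had 163, 97.7 and 184 CPM against 12.7, 21.2 and 11.7 CPM (3.28 ± 0.34, adjusted p = 8.6e-10). Il4, which encodes the type 2 cytokine interleukin 4, had 16.2, 35.9 and 37.6 CPM in KO-labelled and 3.41, 6.87 and 2.85 CPM in WT libraries (2.75 ± 0.46). Bcl11b, a factor of T cell and innate lymphoid commitment, had 62.1, 61.5 and 47.7 CPM against 21.4, 6.87 and 10.8 CPM (2.13 ± 0.43), and its call was lost after background subtraction (adjusted p = 0.184). In all of these the KO-labelled libraries stood clear above the WT libraries. Rora, another factor of type 2 innate cells, had 139.9, 225 and 148 CPM in KO-labelled and 230.2, 221 and 195 CPM in WT libraries and was not called, although it was with no filter on low counts, by DESeq2 and without KO-labelled replicate 2.

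Several genes of mast cells, basophils and eosinophils also rose, 10 of 26 tested, with none lower and a median of 1.18. Il1rl1 is on this list too and counts among the 10. The shares over all tested genes were 3.73% higher and 4.18% lower. Without WT replicate 3, and likewise after background subtraction, 6 rose. Alox5, the first enzyme of leukotriene synthesis, had 104, 153 and 98.00 CPM in KO-labelled and 12.7, 16.03 and 8.56 CPM in WT libraries (3.24 ± 0.33, adjusted p = 5.97e-10, edgeR). Cpa3, the mast cell carboxypeptidase, had 109, 118 and 116 CPM against 26.1, 31.8 and 19.7 CPM (2.14 ± 0.30, adjusted p = 1.04e-06). Epx, the eosinophil peroxidase, had 64.4, 48.7 and 54.4 CPM against 3.72, 2.00 and 1.59 CPM and was 22.6-fold higher (4.50 ± 0.76). The libraries of the genotypes did not overlap for these genes. Mitf, a transcription factor of mast cells, was well expressed in both genotypes and rose by 0.92 ± 0.15, with 190.0, 189.5 and 229.9 CPM in KO-labelled and 107, 103 and 113 CPM in WT libraries. Ms4a2, a signalling chain of the high affinity IgE receptor, rose to 22.4, 30.4 and 18.6 CPM in KO-labelled libraries, against 3.72, 4.01 and 5.71 CPM in WT libraries. The basophil protease genes Mcpt8 and Prss34 were called higher (2.79 and 2.73), but each call was lost without at least 1 library and after background subtraction.

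Other markers of those cells were not called. Kit, the stem cell factor receptor of mast cells and progenitors, had 638, 581 and 701 CPM in KO-labelled and 643, 619 and 659.7 CPM in WT libraries. Fcer1a, the defining chain of the IgE receptor, had 4.24, 2.56 and 2.61 CPM against 2.17, 0.29 and 1.59 CPM, and Siglecf, an eosinophil marker, had 3.08, 2.24 and 2.61 CPM against 4.96, 4.87 and 6.66 CPM. Summed over the list, Il1rl1 included, the level was 2087 to 2170 CPM in KO-labelled and 1260 to 1299 CPM in WT libraries. In RNA of a sorted population, more cells of a type and more RNA per cell cannot be told apart, and the part of such cells in the rise was not tested.

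Ighm, which encodes the constant part of the IgM heavy chain, was the gene with the largest gain in CPM. It had 8575, 8107 and 8264 CPM in KO-labelled and 976, 990.4 and 858 CPM in WT libraries and was 8.83-fold higher (3.14 ± 0.11, adjusted p = 3.29e-24, edgeR). This log2 fold change exceeded the mean of those in HSC, MPP1 and MPP4-labelled libraries by 1.40, so that mean was a rise too. Jchain, which links IgM into polymers, had 116, 93.5 and 147 CPM against 17.4, 9.45 and 22.2 CPM (2.86 ± 0.41, adjusted p = 2.29e-06). Pou2af1, a coactivator of immunoglobulin promoters, had 62.4, 35.5 and 80.1 CPM against 7.75, 9.45 and 7.29 CPM (2.85 ± 0.47, adjusted p = 2.86e-05). All 3 genes separated the genotypes without overlap. Ighg2b, the constant region of IgG2b, rose to 36.6, 49.3 and 26.5 CPM in KO-labelled libraries, against 2.17, 1.15 and 0.32 CPM in WT libraries, and its call was lost after background subtraction (adjusted p = 0.0795).

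Transcription factors of B cell commitment were lower instead. Ebf1 had 61.7, 54.4 and 45.8 CPM in KO-labelled and 154, 127 and 166 CPM in WT libraries (-1.46 ± 0.28, adjusted p = 0.00029, edgeR). Pax5 had 18.1, 28.8 and 10.8 CPM against 43.7, 40.6 and 42.5 CPM (-1.13 ± 0.34, adjusted p = 0.0318). Their KO-labelled libraries all lay below the WT ones, but both calls were lost after background subtraction (adjusted p = 0.182 and 0.382), and that of Pax5 also without each library other than KO-labelled replicate 2. Of 18 tested B lineage genes, 4 rose (Ighm, Jchain, Pou2af1 and Blnk), 3 fell (Ebf1, Pax5 and Bank1) and 11 were not called, with a median of 0.34. Among all tested genes 3.73% rose and 4.18% fell. The call of Blnk was lost after background subtraction and without KO-labelled replicate 2 or any WT replicate. That of Bank1 was lost with the replicate block (adjusted p = 0.0538), by limma-voom (adjusted p = 0.0792), after background subtraction and without each library other than KO-labelled replicate 2. Thus 1 gene of the list fell without KO-labelled replicate 3 or any WT replicate, and 0 after background subtraction. The B cell surface marker gene Cd22 was near 0, with 0, 0.32 and 0 CPM in KO-labelled and 0.93, 0.57 and 0.32 CPM in WT libraries.

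Immunoglobulin V segments, which encode the variable part of the antibody after rearrangement, accounted for many of the steepest rises. Of 346 listed segments, 80 were tested, and 45 rose and 7 fell, with 27 rises after background subtraction. Over all tested genes 3.73% rose and 4.18% fell. A segment entered the test if its counts were high enough in any 1 group of 3 libraries. Segments high in only 1 genotype thus passed through that genotype, and 11 of the 45 had no count in any WT library. Summed counts over all segments were 19439 to 22467 in KO-labelled and 1471 to 1594 in WT libraries. Of 46 tested heavy chain segments 24 rose and 5 fell, and of 33 tested kappa segments 21 rose and 2 fell. Of the called segments with at least 50 counts in every library of the higher genotype, 30 rose and 0 fell. The most abundant, Ighv7-1, had 1733, 1549.6 and 1630.3 CPM in KO-labelled and 90.3, 80.1 and 74.5 CPM in WT libraries. Its log2 fold change was 4.33 here, against 1.90 in HSC, 7.36 in MPP1 and 7.35 in MPP4-labelled libraries. Ighv11-2 had 838, 803 and 750.1 CPM against 22.95, 39.8 and 36.5 CPM. It changed by 4.59 here, 0.71 in HSC, 4.86 in MPP1 and 8.01 in MPP4-labelled libraries. Their rise was thus not particular to MPP2-labelled libraries. Ighv5-16, which also rose here, had 0.66 in HSC, 0.08 in MPP1 and -7.98 in MPP4-labelled libraries. Ighv3-5 had 721, 688 and 706 CPM in KO-labelled libraries and 1 count in each WT library, so no fold is given. Single segments thus stood at nearly the same level in all 3 KO-labelled libraries.

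That evenness was general. Of 40 segments with at least 50 counts in some KO-labelled library, 39 lay within 3-fold of each other in all 3 KO-labelled libraries, and in WT libraries 8 of 8 did. The libraries of a group thus carried the same segments at like levels, and whether they share their source was not tested. V segments resemble each other closely, and how the authors' counting divided reads between them is not given in the sources used here.

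**Figure D4:**
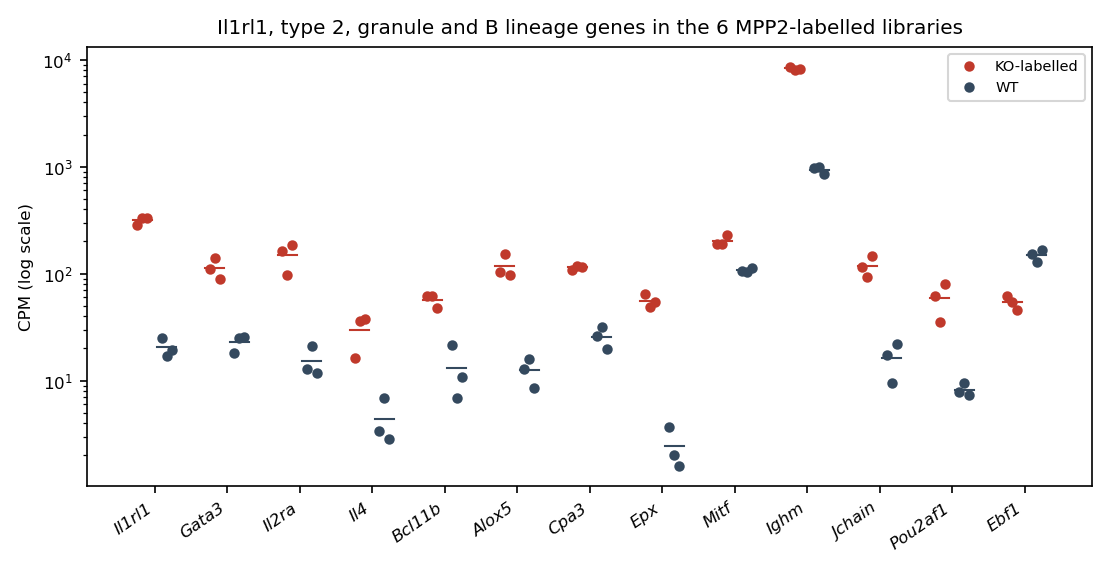
Levels of Il1rl1, of type 2 genes (Gata3, Il2ra, Il4, Bcl11b), of mast cell and granule genes (Alox5, Cpa3, Epx, Mitf) and of B lineage genes (Ighm, Jchain, Pou2af1, Ebf1) in the 6 MPP2-labelled libraries (CPM, log scale), with a line at each mean. KO-labelled points (red) lie above all WT points (grey) for every gene shown except Ebf1, where they lie below.

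Of 19 tested genes of lymphoid priming, 4 fell, 2 rose and 13 were not called, with a median of 0.09. The shares over all tested genes were 4.18% lower and 3.73% higher, and 9.41% and 13.8% among those of at least 64 CPM. By DESeq2, and likewise by edgeR in the 6 libraries alone, 7 fell. Flt3 itself was 2.09-fold lower (-1.07 ± 0.11, adjusted p = 1.11e-09, edgeR), with the levels given above. A fall was also seen in HSC, where Flt3 averaged 30.9 CPM in KO-labelled and 62.9 CPM in WT libraries. In MPP1 and MPP4-labelled libraries the KO-labelled average was the higher one, 574 against 422 CPM and 84.0 against 64.5 CPM. Bcl11a, a factor needed for lymphoid progenitors, had 371, 353 and 417 CPM in KO-labelled and 599.9, 546 and 609 CPM in WT libraries (-0.62 ± 0.09, adjusted p = 1.04e-06). Mef2c, which favours lymphoid over myeloid fate, had 274, 281 and 283 CPM against 406, 402 and 399 CPM (-0.53 ± 0.12, adjusted p = 0.00275). These changes were wider than the spread of the libraries. Notch1 had a log2 fold change of -0.60, a call lost without KO-labelled replicate 1, WT replicate 1 or WT replicate 3. Dntt was not called (-0.45 ± 0.19, adjusted p = 0.151), although no KO-labelled library reached a WT library. It was called lower by limma-voom (adjusted p = 3.52e-05), by edgeR in the 6 libraries alone (adjusted p = 0.000143) and with no filter on low counts (adjusted p = 0.0474), and by DESeq2 (adjusted p = 0.0395). Ikzf3, a factor of later lymphocytes, rose to 56.7, 47.4 and 76.4 CPM in KO-labelled libraries, against 14.6, 21.5 and 17.4 CPM in WT libraries. This rise was lost after background subtraction (adjusted p = 0.148).

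Stem cell regulators were split. Of 28 tested, 7 fell, 3 rose and 18 were not called, with a median of -0.18. Among all tested genes of at least 64 CPM 9.41% fell and 13.8% rose, and over all levels 4.18% and 3.73%. Runx1, the master regulator of definitive blood formation, had 2536, 2454 and 2541 CPM in KO-labelled and 3765, 3735 and 3735 CPM in WT libraries (-0.58 ± 0.05, adjusted p = 1.37e-11, edgeR). Meis1, a homeobox factor of stem cells and leukaemia, had 731, 775 and 749 CPM against 1189, 1172 and 1200.2 CPM (-0.66 ± 0.06, adjusted p = 1.6e-10), and the ETS factor Erg fell by 0.47 ± 0.07. Mecom, which maintains long-term stem cells, went the other way, with 1505, 1628 and 1606 CPM in KO-labelled and 916, 1039.6 and 1055 CPM in WT libraries (0.65 ± 0.06, adjusted p = 4.87e-11). Ly6a, the Sca-1 antigen used to sort these cells, had 117, 116 and 114 CPM against 28.2, 47.5 and 26.3 CPM and was 3.38-fold higher (1.76 ± 0.23, adjusted p = 4.27e-07). The libraries of each genotype agreed closely for Runx1, Meis1 and Mecom. Of the other sort markers, Cd34 had 174, 205 and 231 CPM against 270.5, 276 and 266 CPM (-0.41 ± 0.18, adjusted p = 0.171) and Cd48 had 64.4, 51.5 and 57.01 CPM against 95.2, 79.3 and 80.2 CPM (-0.56 ± 0.29, adjusted p = 0.274), so neither was called, although both were called by edgeR in the 6 libraries alone (adjusted p = 0.0124 and 0.0478) and Cd34 by limma-voom (adjusted p = 0.0196). Gata2 was the third rise (0.59 ± 0.17), a call lost without KO-labelled replicate 1 or WT replicates 1 or 2, after background subtraction, by limma-voom and in the 6 libraries alone. By DESeq2 5 of the list rose.

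Megakaryocyte genes were divided evenly, with 4 of 22 lower, 4 higher and 14 not called. Both counts stand beside 4.18% lower and 3.73% higher over all tested genes, and 9.41% and 13.8% at 64 CPM or more. Plek, the platelet protein kinase C substrate, had 36.6, 30.1 and 35.03 CPM in KO-labelled and 216, 200.1 and 233 CPM in WT libraries and was 6.38-fold lower (-2.67 ± 0.19, adjusted p = 1.96e-14, edgeR). No KO-labelled library came near the lowest WT library. Itgb3, the platelet fibrinogen receptor chain, had 80.9, 79.4 and 83.1 CPM in KO-labelled and 42.2, 26.3 and 33.6 CPM in WT libraries (1.25 ± 0.25), and Nfe2 rose by 0.58 ± 0.14, a call lost without KO-labelled replicate 3 and after background subtraction. After that step 2 of the list rose.

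Some erythroid genes fell and none rose: 10 of 26 tested were lower, against 4.18% over all tested genes, with a median of -0.79. By limma-voom 6 were lower. Car2, a carbonic anhydrase, had 17.3, 13.4 and 23.8 CPM in KO-labelled and 66.1, 80.4 and 66.3 CPM in WT libraries (-1.97 ± 0.20, adjusted p = 4.86e-10, edgeR). Its relative Car1 had 3.08, 2.56 and 6.71 CPM against 18.9, 25.5 and 20.9 CPM (-2.41 ± 0.27, adjusted p = 6.95e-09), and the red cell water channel Aqp1 had 0.39, 0.64 and 1.49 CPM against 7.13, 16.03 and 15.5 CPM (-3.89 ± 0.49). All are low in these cells, and the groups did not overlap. The globin gene Hbb-bs had 69.4, 64.7 and 81.2 CPM in KO-labelled and 122, 118 and 122 CPM in WT libraries (-0.75 ± 0.17), and Hba-a1, whose count is uncertain because it has a near-identical copy, fell by 1.10 ± 0.26. Hemgn, a nuclear protein of blood progenitors, fell by 1.46 ± 0.26. The summed level of the list was 445.6 to 464.3 CPM in KO-labelled and 722 to 750.3 CPM in WT libraries, and the share of red cell precursors in the sorted cells was not tested.

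Of 29 tested neutrophil and monocyte genes, 2 rose and 1 fell, against 3.73% and 4.18% over all tested genes, with a median of 0.31. By limma-voom 7 of them rose, and 8 rose by edgeR in the 6 libraries alone. Mpo, the granule peroxidase and the most abundant of them, had 1573, 1594 and 1527 CPM in KO-labelled and 1570.2, 1471 and 1512 CPM in WT libraries, with overlap (0.04 ± 0.12, adjusted p = 0.879, edgeR). F13a1, a transglutaminase of monocytes and megakaryocytes, had 520.3, 511 and 562 CPM against 235, 229 and 191 CPM (1.28 ± 0.17, adjusted p = 2.95e-07), and Irf8, the monocyte and dendritic cell factor, rose by 1.07 ± 0.30. Csf3r, the receptor for G-CSF, fell by 0.58 ± 0.12 on the log2 scale. The rise of F13a1 was lost after background subtraction (adjusted p = 0.0567), and that of Irf8 also without 5 of the 6 libraries in turn.

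Several genes of protein folding in the endoplasmic reticulum rose. Of 28 tested genes of the unfolded protein and integrated stress responses, 9 rose, none fell and the median was 0.60. The share that rose was 3.73% over all tested genes and 13.8% among those of at least 64 CPM. Ern1, the sensor kinase IRE1 that splices Xbp1 RNA, had 767, 761 and 706 CPM in KO-labelled and 388, 361 and 369 CPM in WT libraries (1.00 ± 0.09, adjusted p = 1.82e-11, edgeR). Xbp1, the transcription factor it activates, had 126, 148 and 149 CPM against 66.1, 53.2 and 51.4 CPM (1.31 ± 0.20, adjusted p = 5.79e-06). The chaperone gene Calr had 1223, 1237 and 1092 CPM against 668, 676 and 704 CPM (0.79 ± 0.08, adjusted p = 6.48e-10). The sensor, its target and the chaperone each separated the genotypes fully. Sel1l, part of the machinery that exports misfolded proteins, rose by 1.04 ± 0.19, and the chaperone Canx by 0.69 ± 0.15.

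Several genes of cholesterol synthesis rose, and both exporters on the list fell. Sqle, squalene epoxidase, had 62.8, 81.6 and 76.02 CPM in KO-labelled and 20.8, 22.6 and 30.8 CPM in WT libraries (1.57 ± 0.23, adjusted p = 2.5e-06, edgeR), and Fdft1, squalene synthase, rose by 1.21 ± 0.25. The sterol exporter Abcg1 had 64.4, 53.8 and 78.6 CPM in KO-labelled and 156, 150.3 and 145 CPM in WT libraries (-1.20 ± 0.18, adjusted p = 3.39e-06). Over the list, 5 of 27 genes rose (among them Scap, the sterol sensor) and 2 fell, with a median of 0.55. The other fall was that of the exporter Abca1 (-0.59), a call lost without KO-labelled replicate 1 or WT replicates 2 or 3. Rises made up 3.73% and falls 4.18% of all tested genes, and 13.8% and 9.41% of those of at least 64 CPM.

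Some genes of ribosome production and translation rose. Of 30 nucleolar genes of ribosome assembly 8 rose and none fell, with a median of 0.46, and of 27 translation initiation factors 3 rose and none fell. Over all tested genes 3.73% rose and 4.18% fell, and among genes of at least 64 CPM 13.8% and 9.41%. Counts of this paragraph near those shares are no result about their list. Nolc1, a nucleolar assembly factor, had 98.7, 121 and 127 CPM in KO-labelled and 54.6, 70.4 and 62.5 CPM in WT libraries (0.89 ± 0.20, adjusted p = 0.00176, edgeR). Npm1, the abundant nucleolar chaperone, had 1209.9, 1142 and 1117 CPM against 922, 912 and 962 CPM (0.31 ± 0.07). Eif4e, the cap-binding initiation factor, had 272, 227 and 218 CPM against 148, 159 and 173 CPM (0.58 ± 0.12, adjusted p = 0.000746). Without WT replicate 3 the rises among nucleolar genes numbered 4. After background subtraction 3 of the nucleolar genes rose, and Npm1 was not called (adjusted p = 0.152). Of 25 glycolysis and hypoxia genes 6 rose, of 46 nuclear genes of oxidative phosphorylation 3 rose and of 11 mitochondrially encoded genes 3 rose, with none lower in any. Background subtraction left 0, 1 and 0 of these rises. The rises of glycolysis genes numbered 2 without KO-labelled replicate 3 and 1, 1 and 3 without WT replicates 1, 2 and 3. Those of nuclear oxidative phosphorylation genes numbered 1 without KO-labelled replicate 1 or WT replicates 1 or 3 and with median-of-ratios scaling. Those of mitochondrially encoded genes numbered 0 without KO-labelled replicate 3 and 1 without WT replicate 2.

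None of 30 tested mitosis genes was called, with a median of -0.14, and 1 of 32 replication genes rose, against 3.73% higher and 4.18% lower over all tested genes. That rise was lost without KO-labelled replicates 1 or 3 or WT replicates 1 or 3, with no filter on low counts and after background subtraction. Mki67, the proliferation antigen, had 1276, 1311 and 1316 CPM in KO-labelled and 1442, 1456 and 1447 CPM in WT libraries and was not called (-0.15 ± 0.07, adjusted p = 0.153, edgeR). It was called lower after background subtraction (-0.30, adjusted p = 0.00636, edgeR), by DESeq2 (adjusted p = 0.0184), by limma-voom (adjusted p = 0.00941) and by edgeR in the 6 libraries alone (adjusted p = 0.0204). Cdk6, the G1 kinase, rose by 0.30 ± 0.06 (adjusted p = 0.000242), which background subtraction removed (adjusted p = 0.111). The survival gene Bcl2 had 1472, 1513 and 1451 CPM in KO-labelled and 779.8, 845 and 796 CPM in WT libraries (0.87 ± 0.08, adjusted p = 1.37e-10), and Zmat3, a p53 target, had 39.3, 40.98 and 44.7 CPM against 8.38, 17.7 and 14.6 CPM (1.61 ± 0.34). These were the 2 rises among 20 tested p53 and apoptosis genes, and none fell.

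Of 40 tested P-body and RNA decay genes, which serve the granules in the title of the series, 2 rose (Cnot6l, a deadenylase, by 0.34 ± 0.11, and Tnrc6a, a microRNA effector, by 0.48 ± 0.15), none fell and the median was 0.07, against 3.73% higher and 4.18% lower over all tested genes. Both calls were close to the threshold (adjusted p = 0.0487 and 0.0405, edgeR) and were lost with median-of-ratios scaling, after background subtraction and without each of the 6 libraries in turn.

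Among interferon response genes 4 of 34 fell and 1 rose, with a median of -0.23, against 4.18% lower and 3.73% higher over all tested genes. The falls numbered 2 without WT replicate 3, 2 after background subtraction and 8 in the 6 libraries alone. Ifi203, a nuclear DNA-binding protein, had 431, 488 and 413 CPM in KO-labelled and 699, 714 and 753 CPM in WT libraries (-0.70 ± 0.09, adjusted p = 2.48e-07, edgeR). Ddx58, which encodes the RNA sensor RIG-I, had 63.6, 72.04 and 60.4 CPM against 103, 104 and 112 CPM (-0.70 ± 0.17). Ly6e went up, with 716, 845 and 733 CPM against 444, 482 and 493 CPM (0.69 ± 0.09, adjusted p = 2.72e-07). Among antigen presentation genes 3 of 15 rose and 2 fell. H2-Ob, a chain of the class II loading regulator, had 44.3, 41.3 and 41.7 CPM in KO-labelled and 154, 188 and 143 CPM in WT libraries (-1.93 ± 0.27, adjusted p = 1.19e-06). The class II gene H2-Aa had 3.08, 5.12 and 0.75 CPM against 27.9, 15.2 and 19.98 CPM, a fall that was lost after background subtraction (adjusted p = 0.0592). Of the remaining lists, 2 of 13 heat shock genes rose (1 without KO-labelled replicates 2 or 3 or any WT replicate, 0 after background subtraction), 1 of 16 chemokine genes rose (Ccl9, not called after background subtraction), and none of 17 metallothionein and oxidative stress genes was called. The 3 antigen presentation rises, Tap1, Tap2 and H2-Q7, were all lost after background subtraction, and 1 gene of the list rose when any 1 of the 6 libraries was left out.

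Several of the strongest changes fell outside these groups. Inpp4b, a lipid phosphatase of the PI3 kinase pathway, had 1474, 1547 and 1642 CPM in KO-labelled and 229, 237 and 219 CPM in WT libraries and was 6.80-fold higher (2.77 ± 0.11, adjusted p = 7.18e-23, edgeR). Slc7a8, an amino acid transporter, had 319.5, 373 and 331 CPM against 42.5, 40.1 and 57.4 CPM (2.87 ± 0.20). Rnf128, a ubiquitin ligase linked to T cell unresponsiveness, had 165, 182 and 129 CPM against 4.65, 7.44 and 5.39 CPM and was 27.02-fold higher (4.76 ± 0.36, adjusted p = 1.27e-13). For each gene every KO-labelled library stood several times above every WT library. Chst1, a sulfotransferase, rose by 3.93 ± 0.55 and the potassium channel gene Kcnq5 by 1.09 ± 0.09. Thbs1, the matrix protein thrombospondin, is among the rises of the megakaryocyte list. It rose by 4.07 ± 0.68 from WT levels of at most 4 counts.

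Among the falls, Prkg1, the cyclic GMP-dependent kinase, had 129, 114 and 129.7 CPM in KO-labelled and 552, 581 and 566 CPM in WT libraries and was 4.56-fold lower (-2.19 ± 0.08, adjusted p = 3.29e-24, edgeR). Ctse, the protease cathepsin E, had 136, 128 and 138 CPM against 462, 463 and 421 CPM (-1.74 ± 0.11, adjusted p = 1.38e-16). Pip4k2a, a phosphoinositide kinase, had 276, 291 and 295 CPM against 802, 881 and 836 CPM (-1.55 ± 0.10, adjusted p = 1.96e-16). Replicates of a genotype differed by little beside these gaps. Eya2, a phosphatase and transcriptional coactivator, fell by 1.66 ± 0.10 on the log2 scale, and Ccser1 fell by 1.52 ± 0.10. At low levels, Ptgs2, the inducible cyclooxygenase, had 1.93, 2.88 and 0 CPM in KO-labelled and 16.4, 17.7 and 24.7 CPM in WT libraries, and Trim17 had 3.08, 0.96 and 2.61 CPM against 27.3, 34.9 and 30.4 CPM. Kndc1 had 0 to 2 counts in KO-labelled libraries and 17 to 57 in WT libraries.

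The remaining genes among the 10 largest changes in each direction were near the lower limit of measurement in 1 genotype. Prg2, the major basic protein of eosinophils, had 19.3, 7.68 and 15.3 CPM in KO-labelled and 0, 2.58 and 0.32 CPM in WT libraries. Its call was lost with the replicate block (adjusted p = 0.0714, edgeR), after background subtraction (adjusted p = 0.272) and without KO-labelled replicates 1 or 3 or WT replicates 1 or 3. Myl10, a myosin light chain, had 8.48, 28.2 and 12.3 CPM against 1.55, 1.72 and 0.32 CPM, and the zinc finger gene Zfp469 had 11.2, 31.1 and 27.2 CPM against 1.24, 3.43 and 1.59 CPM. Among the falls, A1cf, an RNA editing cofactor, had 0.77, 4.16 and 1.49 CPM in KO-labelled and 25.1, 29.5 and 21.9 CPM in WT libraries. Cfap45 had 1.54, 0 and 0 CPM against 12.4, 18.9 and 13.6 CPM, Ip6k3, an inositol phosphate kinase, had 1.16, 0.32 and 0.75 CPM against 5.89, 11.7 and 16.5 CPM, and the interferon-inducible gene Ifi208 had 1.16, 0 and 1.49 CPM against 9.31, 12.9 and 13 CPM. Lack of overlap between the genotypes was a condition for naming these 7 genes and is no result about them. The calls of Zfp469, A1cf, Ip6k3 and Ifi208, and that of Kndc1, were lost after background subtraction, and that of Ip6k3 also without KO-labelled replicate 2.

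To see what differed from the remaining populations, the KO effect (the log2 fold change of KO-labelled over WT) in MPP2-labelled libraries was set against the mean KO effect of HSC, MPP1 and MPP4-labelled libraries in the same model. This difference was called for 924 genes as higher (4.21% of 21964) and 1322 as lower (6.02%). The counts differed between single populations. Against HSC alone 2085 genes were higher and 1741 lower. Against MPP1 alone they were 224 and 671, and against MPP4-labelled libraries alone 283 and 818. Of the 917 genes that fell in MPP2-labelled cells, 337 (36.8%) were also lower than the mean of the other populations and 31 were higher. Of the 820 that rose, 143 (17.4%) were higher and 71 were lower. The gap in background share between genotypes was narrower in MPP2-labelled libraries than elsewhere: it was 5.46% in KO-labelled and 22.0% in WT libraries of HSC, 13.6% and 23.7% in MPP1, and 18.0% and 29.8% in MPP4-labelled libraries. With background subtracted, 158 genes were higher and 348 lower, and without WT replicate 1, 2 or 3 of the MPP2-labelled libraries 591, 596 and 593 were higher. Under median-of-ratios scaling 1038 were higher and 830 lower, and the median difference over all genes was 0.08, against -0.02 with the scaling used here. The part of background in single differences was not tested.

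Il1rl1 had the largest difference among the 8 genes of smallest p. Its KO effect was 3.94 in MPP2-labelled libraries, against -2.43 in HSC, 2.48 in MPP1 and -1.41 in MPP4-labelled libraries, a difference of 4.40 ± 0.27 (adjusted p = 8.87e-16, edgeR). Inpp4b differed by 2.38 ± 0.13, from effects of 2.77 in MPP2-labelled libraries and 0.37 in HSC, 1.35 in MPP1 and -0.55 in MPP4-labelled libraries. Thus the rise of both genes was shared in direction with MPP1 and not with MPP4-labelled libraries. Gata3 and Il2ra had the same order, with effects of 2.31 and 3.28 in MPP2-labelled libraries, 1.96 and 2.49 in MPP1, and values below 0 in HSC and MPP4-labelled libraries.

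Other genes had a lower KO effect in MPP2-labelled libraries than elsewhere. Rnf220, a ubiquitin ligase, had a KO effect of -0.64 in MPP2-labelled libraries, against 1.14 in HSC, 0.36 in MPP1 and 0.45 in MPP4-labelled libraries, a difference of -1.29 ± 0.07 (adjusted p = 6.29e-17, edgeR). Meis1 had -0.66, against 0.69 in HSC, -0.04 in MPP1 and 0.60 in MPP4-labelled libraries (-1.07 ± 0.07, adjusted p = 1.26e-14). The RNA-binding stem cell factor Msi2 had -0.46, against 0.53 in HSC, 0.32 in MPP1 and 0.31 in MPP4-labelled libraries (-0.84 ± 0.06, adjusted p = 3.16e-14). For Rnf220 and Msi2 the sign in MPP2-labelled cells was opposite to that in each other population. Gcnt2, a glycosyltransferase, and Maml2, a Notch coactivator, showed the same reversal, with differences of -1.31 ± 0.09 and -1.27 ± 0.09. Bcl11a likewise fell in MPP2-labelled cells, with effects elsewhere of 1.14 in HSC, 0.36 in MPP1 and 0.22 in MPP4-labelled libraries (-1.20 ± 0.10, adjusted p = 4.13e-12). Prkg1 differed by -1.56 ± 0.09, although it also had an effect of -1.75 in MPP1.

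The fall of immediate early genes was not confined to MPP2-labelled cells. Egr1 had KO effects of -4.00 in MPP2-labelled libraries, against -2.20 in HSC, -2.95 in MPP1 and -3.09 in MPP4-labelled libraries, and the difference of -1.25 ± 0.22 was called (adjusted p = 5.41e-05, edgeR). Btg2 was likewise lower everywhere, with -1.77 in HSC, -2.13 in MPP1 and -2.22 in MPP4-labelled libraries, and its difference was -1.53 ± 0.36 (adjusted p = 0.00286), a call lost after background subtraction (adjusted p = 0.0698). Fos, Jun and Nr4a1 were lower in each population, and their differences of -0.37 ± 0.34, 0.44 ± 0.32 and -0.74 ± 0.35 were not called (adjusted p = 0.569, 0.452 and 0.183). Of 22 tested immediate early transcription factors 2 had a lower KO effect in MPP2-labelled cells than elsewhere. Of 27 feedback and effector genes 4 had a lower one, and no gene of these lists had a higher one. Among 26 tested erythroid genes 7 had a higher and 2 a lower effect than elsewhere. Over all tested genes 4.21% were higher and 6.02% lower. Among them Hbb-bs had -0.75 in MPP2-labelled libraries, against -1.18 in HSC, -2.98 in MPP1 and -1.37 in MPP4-labelled libraries.

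**Figure D5:**
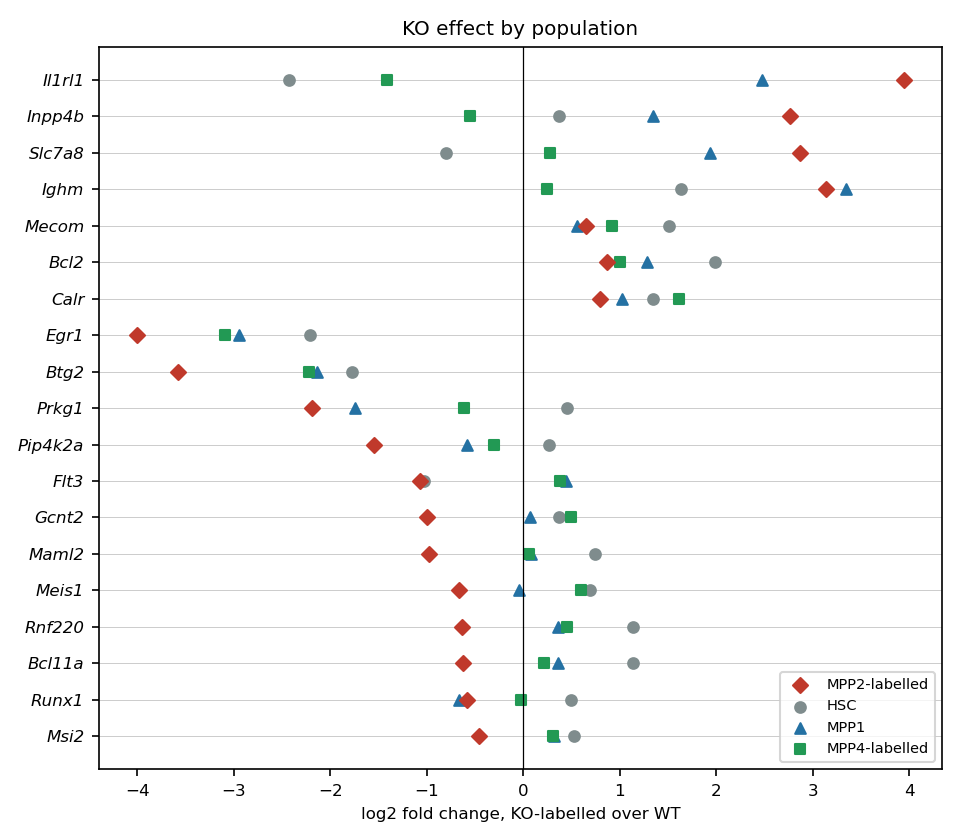
KO effect (log2 fold change of KO-labelled over WT) of 19 named genes in MPP2-labelled libraries (red diamonds), HSC (grey circles), MPP1 (blue triangles) and MPP4-labelled libraries (green squares). Il1rl1 and Inpp4b rise most in MPP2-labelled libraries, Egr1 and Btg2 lie below 0 in all populations, and Gcnt2, Rnf220, Bcl11a and Msi2 lie below 0 only in MPP2-labelled libraries.

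None of 14 tested T and NK cell genes was called, and their summed level was 60.2 to 96.5 CPM in KO-labelled and 116 to 132 CPM in WT libraries. Among them Cd3e had 0.77, 0 and 1.86 CPM in KO-labelled and 0, 1.43 and 0.95 CPM in WT libraries. The neutrophil marker Ly6g had no count in any KO-labelled library, which allows up to 3 counts, and was at 0 in 2 WT libraries. Of 15 stromal and endothelial genes 1 fell, the growth factor receptor gene Pdgfrb, and their summed level was 778 to 921 CPM in KO-labelled and 746 to 808 CPM in WT libraries. Of 15 macrophage and dendritic cell genes 1 rose (Clec9a) and 2 fell (Flt3, which the list shares with lymphoid priming, and Cd209a). The call of Clec9a was lost without each library other than KO-labelled replicate 2, and that of Cd209a without KO-labelled replicates 2 or 3 or WT replicate 2, and both after background subtraction. The summed level of this list was 631 to 790.1 CPM in KO-labelled and 1325 to 1398 CPM in WT libraries. Flt3 made up most of it, with averages of 540.2 CPM and 1131 CPM, so the sum says little about the other members. The part of such cells in the results above was not tested.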

How the data were processed

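The deposited table holds raw counts per gene for 24 libraries, made by the authors with no normalization. The submitters' processing notes name SAMtools 1.12, DESeq2 and the mouse build mm39. The aligner, counter, annotation and strand setting are not given in the sources used here, so antisense and overlapping genes cannot be told apart. Per the labels' protocols, RNA was extracted with a miRNeasy Micro kit and libraries were made with NEBNext Ultra II. Groups were taken from the titles.

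Counts were analysed in R 4.3.3 with edgeR 4.0.16 (filterByExpr, TMM scaling, quasi-likelihood test). All 24 libraries entered 1 fit with 8 group means (16 residual degrees of freedom), which share 1 estimate of spread. Benjamini-Hochberg adjustment covered 21964 genes, and the threshold was 0.05. The SE was taken from the fold change and its F statistic. The difference of KO effects is a contrast of the same fit. The background density came from 2003 receptor genes, scaled by gene span, known for 91.9% of IDs. Promoters came from RefSeq on GRCm38.p6, of which only sequence and names were used. The steps were tested on simulated data. No interval is given for single counts.

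The rule named Ddx6, the markers, the 10 largest rises and falls (at least 10 CPM, no overlap), the 6 rises and falls of smallest p (at least 50 CPM), up to 5 genes per list by p, and the 8 smallest p of the difference. Predicted genes and single V segments were passed over there, and further list members, V segments and motifs were picked after their values were seen. The members and lists were chosen with earlier results of these data known. Alternatives were median-of-ratios scaling, no filter, a filter of 5 CPM in 3 libraries, DESeq2 1.42.0, limma-voom (limma 3.58.1), a replicate block, background subtraction, the 6 libraries alone, and each library left out. Genes sharing a name (959) were kept apart by ID. Some genes that the analysis covered are not reported here.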

Additional observations from a re-analysis of the deposited data

Results flagged for a closer look

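For each gene below the KO effect in MPP2-labelled libraries differed from the mean KO effect of HSC, MPP1 and MPP4-labelled libraries, by a contrast tested in the same model (edgeR, quasi-likelihood, Benjamini-Hochberg adjustment, threshold 0.05). Values are log2 differences, MPP2-labelled minus the mean of the other populations. They are given without explanation, and calls lost under alternatives are listed at the end.

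Among the rises in MPP2-labelled cells, the difference was 4.40 for Il1rl1, 1.40 for Ighm, 2.27 for Jchain, 3.49 for Pou2af1 and 0.89 for Blnk. Type 2 and mast cell genes differed by 1.91 (Gata3), 3.22 (Il4), 3.56 (Il2ra), 2.76 (Bcl11b), 2.40 (Alox5) and 1.30 (Cpa3). It was 3.05 for Ikzf3, 1.78 for Itgb3, 3.41 for Thbs1 and 1.88 for F13a1. Outside the lists it was 2.38 for Inpp4b, 2.40 for Slc7a8, 4.47 for Rnf128 and 3.86 for Chst1.

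Immediate early genes had differences of -1.25 (Egr1), -1.53 (Btg2), -1.49 (Zfp36), -1.04 (Dusp1) and -1.21 (Dusp5). Lymphoid and stem cell genes had differences of -1.0 (Flt3), -1.20 (Bcl11a), -0.81 (Mef2c), -0.72 (Notch1), -1.07 (Meis1), -0.52 (Runx1) and -0.73 (Erg). Of these, Flt3 was also lower in KO-labelled HSC, as given above. Among megakaryocyte and stromal genes the values were -1.86 for Plek, -1.37 for Trpc6 and -0.91 for Pdgfrb. The red cell genes Car2 and Aqp1 had -1.33 and -2.65, and Csf3r had -0.57. Sterol exporters had -1.33 (Abcg1) and -0.70 (Abca1). Interferon and antigen presentation genes had -1.16 (Ifi203), -1.17 (Ddx58), -1.41 (Rtp4) and -1.63 (H2-Ob), and Ccnd3 had -0.67. Outside the lists the values were -1.56 (Prkg1), -0.80 (Ctse), -1.34 (Pip4k2a), -1.04 (Eya2), -1.07 (Ccser1), -1.31 (Gcnt2), -1.27 (Maml2), -0.84 (Msi2) and -1.29 (Rnf220).

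Some genes differed in a direction other than their own change. Myc (-0.59), Mecom (-0.34), Nfe2 (-0.50), Cdk6 (-0.41), Calr (-0.53), Bcl2 (-0.55) and Tap2 (-0.66) rose in MPP2-labelled cells, and less than the mean of the other populations. Hbb-bs (1.09) and Hba-a1 (1.25) fell, and less than that mean. Dntt (-0.96), Kit (-0.43), Mki67 (-0.70) and Mpo (1.51) were not called in MPP2-labelled cells themselves. Epx, Ms4a2, Prss34, Ighg2b, Kndc1 and Ip6k3 are left out because 1 or more groups never exceeded 3 counts.

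Some of these differences were not called under an alternative. After background subtraction those of Jchain (adjusted p = 1), Pou2af1 (0.0609), Blnk (0.426), Bcl11b, Cpa3, Ikzf3, Rnf128 (1) and Chst1 (0.11) were lost among the higher ones (edgeR), and those of Btg2, Zfp36, Dusp1, Notch1, Pdgfrb, Csf3r, Abca1, Rtp4, Ccnd3, Myc, Mecom, Nfe2, Cdk6, Calr, Bcl2, Tap2, Dntt and Kit among the lower ones. By limma-voom those of Ighm (adjusted p = 0.418), Aqp1 and Dntt were lost. Median-of-ratios scaling and DESeq2 each removed those of Nfe2, Abca1, Pdgfrb and Tap2. Of MPP2-labelled libraries, leaving out KO-labelled replicate 1 removed those of Notch1, Nfe2, Abca1, Rtp4 and Tap2, leaving out KO-labelled replicate 2 those of Blnk, Nfe2 and Pdgfrb, and leaving out KO-labelled replicate 3 that of Pdgfrb. Without WT replicate 1 those of Blnk, Nfe2 and Pdgfrb were lost, without WT replicate 2 those of Blnk, Pdgfrb and Tap2, and without WT replicate 3 those of Blnk, Cpa3, Abca1, Rtp4, Pdgfrb and Tap2.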

How the results depend on the processing

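No named gene that was called changed sign in the comparison of KO-labelled with WT libraries under the alternatives run; estimates of genes that were not called, such as Ddx6, Itga2b, Kit and Mpo, crossed 0 under some. After background subtraction 306 genes rose and 570 fell, the difference to the other populations was called higher for 158 genes and lower for 348, and 27 V segments and 6 mast cell, basophil and eosinophil genes rose. Median-of-ratios scaling gave 713 rises and 1008 falls, and differences of 1038 higher and 830 lower; DESeq2 gave 1386 higher and 1049 lower. With limma-voom 853 genes rose and 717 fell, and 6 erythroid genes fell. The causes of these shifts were not tested.

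Leaving out 1 library at a time gave 486 to 659 rises and 604 to 751 falls, with the lowest counts without WT replicate 3, and 520 and 510 rises without WT replicates 1 and 2. Differences were higher for 591 to 849 genes (591, 596 and 593 without WT replicates 1, 2 and 3) and lower for 1012 to 1151. V segments that rose numbered 38 to 43, immediate early transcription factors that fell 8 to 10, feedback genes that fell 6 to 8, mast cell, basophil and eosinophil genes that rose 6 to 9 (6 without WT replicate 3), type 2 genes 4 to 4, erythroid genes that fell 9 to 10 and unfolded protein response genes that rose 6 to 9. The label check ranged from 2.58 to 2.77 (KO-labelled) and 4.12 to 4.18 (WT) for Flt3, 3.23 to 3.26 and 4.98 to 5.02 for Dntt, -5.63 to -3.78 and -2.51 to -2.29 for Slamf1, and -3.75 to -1.73 and -2.95 to -2.48 for Itga2b.

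Correlations of same-numbered deviations between genotypes were 0.0132, 0.00584 and 0.0197, and those of other pairs ran from -0.0193 to 0.00603. Deviations were centred within each group of 3 libraries, so such small values cannot decide whether the numbers pair the libraries. Each library correlated best with its own number except WT replicate 2. With the replicate block 802 genes rose and 875 fell, and differences were 854 higher and 1307 lower. Depth limits the low genes, where few counts per library decide a call.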
